A study of Arabidopsis thaliana with 24 samples.

Results

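The comparison described here set leaves of the Arabidopsis thaliana knockout mpk6 against leaves of the wild type Col-0, both infiltrated with water and harvested 4 h later. Its members are the 6 arrays whose titles give these genotypes and this treatment, 3 of mpk6 and 3 of Col-0, out of 24 arrays in the series. The whole series covered 4 genotypes (Col-0, mpk6, the knockout erf104, and 35S::ERF104, a line in which the 35S promoter drives the ethylene response factor ERF104), each after water or 1 µM flg22, a peptide of bacterial flagellin. Plants were 6 weeks old and grown on soil in short days, and biotin-labelled cRNA from total leaf RNA was hybridised to Affymetrix ATH1 arrays. The labels call the mutant only a knockout of MPK6. They do not name its allele or say whether the replicates of a group came from separate plants, so the p-values below measure the spread between these samples, which may be technical. All the groups share the infiltration itself, and no array of leaves without infiltration was analysed here.

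MPK6 is a mitogen-activated protein (MAP) kinase. Receptors of microbial patterns switch on a chain in which MAP kinase kinase kinases phosphorylate MAP kinase kinases such as MKK4 and MKK5, which in turn phosphorylate MPK3 and MPK6. MPK6 is known to phosphorylate ACC synthases, which make the precursor of ethylene, and transcription factors such as ERF104, WRKY33 and VIP1. It also acts in stomatal patterning and in ovule and embryo development, so its loss can be read in leaves that were never given a microbial peptide. The water arrays address that question: how the mutant's leaves differ from the wild type without flg22, 4 h after infiltration with water.

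Signals are linear intensities on arrays that had been brought to a common trimmed mean of about 500. The Col-0 water arrays were less alike than the mpk6 water arrays. Across all probe sets the log2 signals of the 3 Col-0 arrays correlated with Pearson's r of 0.614 to 0.734, and those of the 3 mpk6 arrays with 0.848 to 0.885. Col-0 replicate 2 correlated with the mpk6 arrays at 0.859 to 0.890, above its own group, whereas Col-0 replicates 1 and 3 correlated with them at 0.684 to 0.737. The authors' detection calls, which they deposited for groups and not for arrays, went the same way: 2572 probe sets (11.3%) were present or marginal on every Col-0 water array, against 9338 (41.1%) on every mpk6 water array. Median signals were 182 to 302 in Col-0 and 148 to 178 in mpk6. RNA quality controls differed for actin, with a log2 ratio of the 3′ to the 5′ actin probe set of 2.99 to 3.3 in Col-0 and of 3.40 to 5.06 in mpk6. The same ratios of GAPDH (0.594 to 1.56 and 0.489 to 1.48) and ubiquitin (1.48 to 2.26 and 1.96 to 2.06) overlapped. The part that these array differences play in any result below was not tested. Values after quantile normalization, and against Col-0 replicate 2 alone, therefore stand beside MPK6 and the 15 genes named as higher in mpk6.

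The targeted gene was lower on every mpk6 array. The MPK6 probe set (AT2G43790) read 1163, 1526 and 724 in Col-0 under water, a mean of 1138 ± 402 (SD, n = 3), and 316, 263 and 465 in mpk6, a mean of 348 ± 105 (SD, n = 3). The lowest Col-0 array stood above the highest mpk6 array, and all 9 water arrays of the other 3 genotypes (724 to 1526) stood above the 3 of mpk6. The log2 difference was -1.69 (SE 0.43, 95% confidence interval -2.60 to -0.77), 3.22-fold lower in mpk6, with an unadjusted p of 0.00121 and an adjusted p of 0.639 in limma. After quantile normalization the difference was -1.51, and against Col-0 replicate 2 alone it was -2.18. In Col-0 the calls of the probe set included both present and absent, although every Col-0 signal was higher. Some signal remained in mpk6, and the probe set was called present on every mpk6 array. Where the probes lie relative to the disrupted part of the gene was not examined, so this level says nothing of protein. The difference from erf104 under water was -1.36 (adjusted p = 0.121) and that from 35S::ERF104 under water -1.58 (adjusted p = 0.0718).

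**Figure D1:**
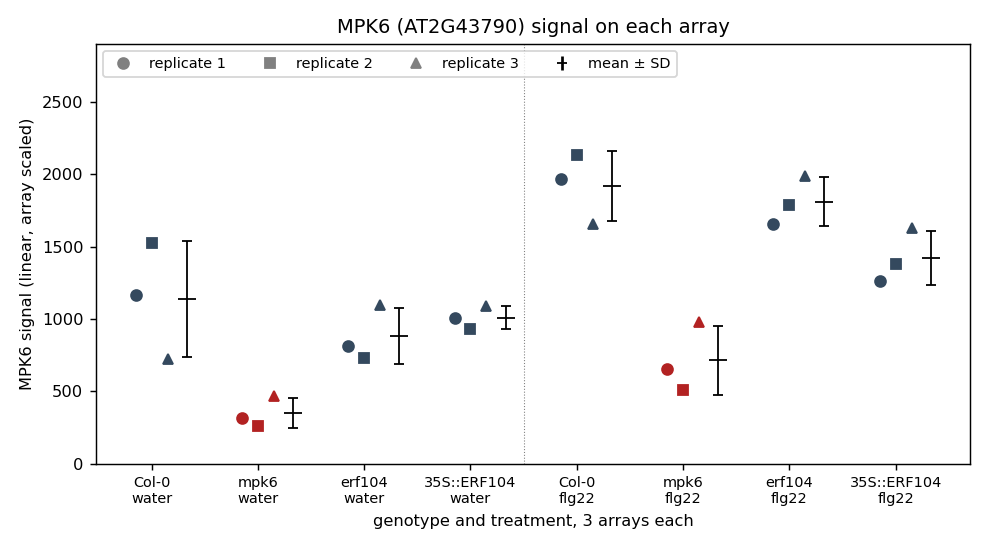
Signal of the MPK6 probe set (linear intensity, y axis) on each array of the 8 groups (x axis); marker shapes give the replicate number, and bars show mean ± SD of 3 arrays. The mpk6 water arrays lie between 263 and 465, below every water array of the other genotypes, and the mpk6 flg22 arrays between 509.9 and 975 lie below the Col-0 flg22 arrays.

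Over the transcriptome, no probe set separated the genotypes after adjustment. Of 22746 probe sets tested, limma called 0 (0%) at an adjusted p under 0.05, and the smallest adjusted p was 0.639. At an unadjusted p under 0.05 it gave 1740 (7.65%), of which 346 (1.52%) were higher and 1394 (6.13%) lower in mpk6. Leaving out mpk6 replicate 3 took the 1740 to 919 and mpk6 replicate 2 to 1038, leaving out Col-0 replicate 2 took it to 4135, and without Col-0 replicate 3 limma called 1 probe set, psbA. The series' own rule, a one-way test per probe set at p under 0.05 with more than a 3-fold difference, gave 884 (8 higher and 876 lower) before adjustment and 0 after it. The 3 arrays of each group did not overlap at 704 probe sets that were higher in mpk6 (3.1%) and at 2462 that were lower (10.8%). With 3 arrays against 3, an exact two-sided permutation test of a single gene cannot go below 0.1. No gene below passed this test on the 6 arrays, so each is given by its values. In whole leaves, fewer cells of a type and less RNA per cell cannot be told apart.

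The 15 single-gene probe sets with the smallest p among those higher without overlap were all called present or marginal on every mpk6 array, and 5 of them on every Col-0 array. Their log2 differences ran from 1.06 to 2.88 and their unadjusted p from 0.00116 to 0.00660. In all 15, Col-0 replicate 2 was the highest of the 3 Col-0 arrays. Against that array alone the differences ran from 0.55 to 1.64, and after quantile normalization of all arrays from 0.80 to 3.29. The genes were picked for groups without overlap, so the sign against any single Col-0 array was fixed by that choice.

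Several of these genes belong to basic metabolism. SERAT2;2, a serine acetyltransferase that makes the precursor of cysteine, read 1013, 1594 and 444 in Col-0 and 3020.2, 2455 and 2975 in mpk6. Every mpk6 array was above every Col-0 array, by 1.65 on the log2 scale (SE 0.42) or 3.13-fold. KCS9, a synthase of very-long-chain fatty acids for surface lipids, read 552, 1423 and 943 in Col-0 and 1728, 2555 and 2784 in mpk6, with a log2 difference of 1.35 (SE 0.39). GLX1, a glyoxalase that detoxifies methylglyoxal, read 1584, 2547 and 1536 in Col-0. On the mpk6 arrays it read 3675, 3934 and 3880.4, values that lay close together and above the highest Col-0 array (log2 difference 1.06, SE 0.34). RS27A, a protein of the small ribosomal subunit, read 2069, 5718 and 3105 in Col-0 and 8688, 6465 and 10522 in mpk6 (1.34, SE 0.41).

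Others act in signalling. CIPK7, a protein kinase that works with calcium sensors of the CBL family, read 758, 1367 and 1170.3 in Col-0 and 2245, 2601 and 2335 in mpk6. Its groups stood well apart, with a log2 difference of 1.16 (SE 0.35), and it was present on every array of both. SAP5, a stress-associated zinc finger protein, read 1228, 2485 and 1535 in Col-0 and 4341, 4122 and 2823 in mpk6 (1.14, SE 0.37). The secreted peptide gene RALFL33, of a family that receptor kinases perceive at the cell surface, read 1027, 1259 and 813 in Col-0 and 2347, 1721 and 2495 in mpk6 (1.09, SE 0.35). In these genes, too, the gap between the groups was narrowest at Col-0 replicate 2.

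The other 8 carry only a locus number in the reference table used here. The highest log2 difference of the 15 was at AT1G01300, which read 24, 244 and 186 in Col-0 and 716, 555 and 1102 in mpk6, 7.39-fold apart (log2 2.88, SE 0.75). AT4G10750 read 124, 475 and 76.2 in Col-0 and 744, 639 and 722 in mpk6 (2.09, SE 0.62). Both were uneven in Col-0 and steadier in the mutant. AT3G19030 read 392, 955 and 223 in Col-0 and 1304, 1167 and 1960.0 in mpk6 (1.72, SE 0.48). AT3G06680, AT3G18190, AT1G15270, AT5G20700 and AT2G34585 differed by 1.59, 1.54, 1.38, 1.2 and 1.12 on the log2 scale.

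**Figure D2:**
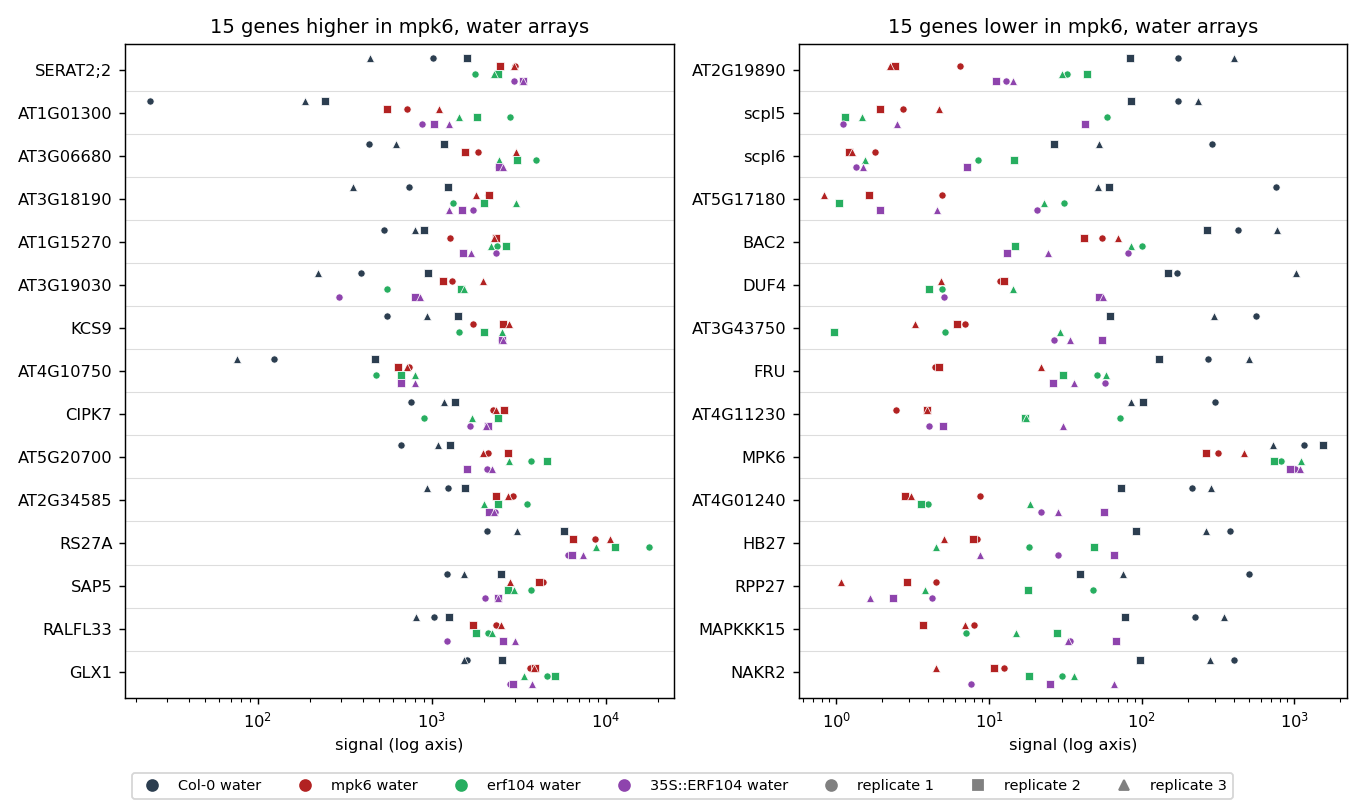
Signal (linear intensity on a log axis) of the 15 higher genes in the left panel and of MPK6 with 14 lower genes in the right panel, on each water array; colours mark the 4 genotypes and marker shapes the replicate number. For the higher genes the mpk6 arrays sit together above the Col-0 arrays, and for the lower genes Col-0 alone stands above the other 3 genotypes at many genes, with MPK6 itself the exception. The genes were picked for mpk6 and Col-0 arrays that do not overlap, which favours both patterns.

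The 15 genes named on the lower side by the same rule included MPK6, and the other 14 were of another kind. All 14 were called absent on every mpk6 array, and 11 were absent on every array of both groups. Their signals were 0.826 to 69.6 in mpk6 and 26.5 to 1023 in Col-0. These are differences between weak signals, and no fold is given for the 14. In 12 of the 14, Col-0 replicate 2 was the lowest Col-0 array, so here also it lay nearest to the mutant.

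The remaining 3 of the 14 had a present or marginal call in Col-0, but not on every array. DUF4 read 170.0, 148 and 1023 in Col-0 and 11.9, 12.5 and 4.81 in mpk6. AT3G43750 read 558, 62.4 and 298 in Col-0 and 6.99, 6.17 and 3.28 in mpk6. AT5G17180 read 761, 60.7 and 51.4 in Col-0 and 4.88, 1.65 and 0.826 in mpk6, so its Col-0 level rested on replicate 1. Among the genes not detected in either group was MAPKKK15, a MAP kinase kinase kinase. It read 223, 77.1 and 343 in Col-0 and 7.98, 3.71 and 6.92 in mpk6. FRU, the bHLH regulator of the iron deficiency response, read 269.6, 129.6 and 506 in Col-0 and 4.45, 4.71 and 22.0 in mpk6. BAC2, a mitochondrial carrier of basic amino acids, read 428, 267 and 774 in Col-0 and 54.8, 41.9 and 69.6 in mpk6. The rest were scpl5 and scpl6 (serine carboxypeptidase-like proteins), HB27 (a homeobox protein), NAKR2, RPP27, AT2G19890, AT4G11230 and AT4G01240.

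The direction of the differences followed the strength of the signal. In 4 equal bins of mean log2 signal, from weakest to strongest, the median log2 difference was -1.66, -0.79, -0.15 and 0.19, and after quantile normalization -0.47, 0.01, 0.26 and 0.11. Probe sets absent on every array of both groups (8423) had a median of -1.50 with a median SE of 1.41. Those present or marginal on every array of both groups (2554) had a median of 0.18 with a median SE of 0.384. Of the 2462 probe sets lower without overlap, 1603 (65.1%) were absent on every mpk6 array, beside 38.7% of all probe sets. Of the 704 higher without overlap, 640 (90.9%) were present or marginal on every mpk6 array, beside 41.1%. Most of the lower probe sets thus lay among signals not detected in the mutant, which a choice of probe sets low in mpk6 itself favours. Over all probe sets the median was -0.35, and it became 0.05 after quantile normalization and 0.21 after centring each array on its median.

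**Figure D3:**
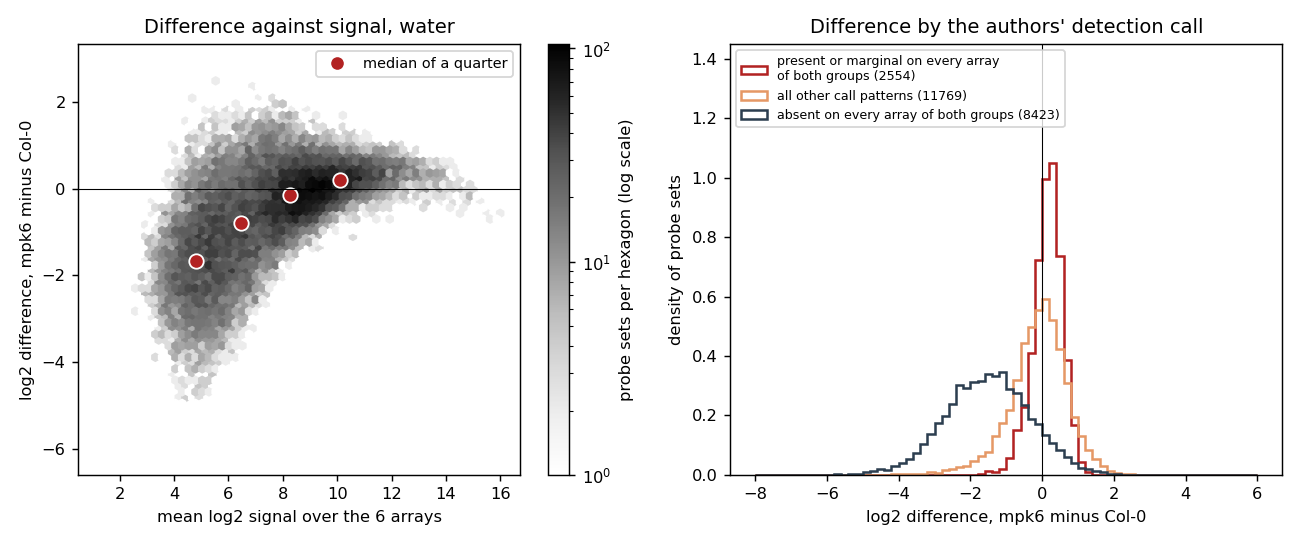
The left panel shows the log2 difference, mpk6 minus Col-0 under water (y axis), against the mean log2 signal of the 6 arrays (x axis) for all 22746 probe sets, shaded by density, with the median of each of the 4 bins as a red dot (-1.66, -0.79, -0.15 and 0.19). The right panel shows the distribution of the same difference by detection call: the curve of probe sets absent on every array is wide and centred below 0, and that of probe sets present on every array is narrow and centred just above it.

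The other water arrays place the 29 genes besides MPK6 among the genotypes. These comparisons share the mpk6 and Col-0 arrays with the one above, so the values are given side by side and not as further evidence. The 29 genes were also picked because their Col-0 arrays lay beyond those of mpk6, which favours the counts below. The matching share of all probe sets was not counted for these lines. For 13 of the 15 higher genes all 3 erf104 arrays were above all 3 Col-0 arrays, and for 12 the same held for 35S::ERF104. SERAT2;2, for example, read 1775, 2408 and 2284 in erf104 and 2971, 3353 and 3328 in 35S::ERF104. The mpk6 arrays overlapped those of erf104 in 12 of the 15. None of the 15 reached an adjusted p under 0.05 between mpk6 and erf104 or 35S::ERF104 in limma (2 and 3 reached an unadjusted p under 0.05).

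For the 14 lower genes, erf104 arrays were all below Col-0 in 13 and 35S::ERF104 arrays in 14. MAPKKK15 read 7.01, 27.7 and 15 in erf104 and 33.7, 67.6 and 32.9 in 35S::ERF104, well under Col-0 in each. In these 29 genes, picked for a separation of Col-0 from mpk6, the Col-0 arrays stood apart from all 3 other lines at most genes. MPK6 differed: its erf104 and 35S::ERF104 arrays (732 to 1099) lay within the range of Col-0. Adjusted p-values against erf104 or 35S::ERF104 were at or above 0.05 for all 14 (4 and 4 had an unadjusted p under 0.05).

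A direct comparison of mpk6 with erf104 under water called 5 probe sets at an adjusted p under 0.05 in limma (0.0277 to 0.0329), all higher in mpk6, with 2385 at an unadjusted p under 0.05. They were PP2-A13, ATCTH, TPS8 (a trehalose phosphate synthase family gene), AT1G80440 (also known as KMD1, a kelch repeat F-box protein) and AT2G27830. ATCTH read 4917, 4619.8 and 2827 in mpk6 and 282, 514 and 762 in erf104. Its Col-0 arrays read 4571, 5526 and 1101, and its 35S::ERF104 arrays 819, 378 and 499, so mpk6 lay close to Col-0 here and both other lines were low. AT1G80440 read 7461, 9532 and 4079 in mpk6 and 238, 685 and 1089 in erf104, with 3793, 7428 and 1305 in Col-0. Across the 5, the log2 differences between mpk6 and Col-0 were 0.33 to 1.44, and those between mpk6 and erf104 were 2.56 to 3.56. Against 35S::ERF104, 13 probe sets were called, 6 higher and 7 lower in mpk6, and ATCTH, PP2-A13 and AT1G80440 were among the 6. At all 5 genes called against erf104, mpk6 replicate 3 was the lowest mpk6 array. The log2 ratio of 3′ to 5′ actin was 4.09 to 5.74 on the erf104 water arrays and 5.47 to 5.65 on those of 35S::ERF104. On the mpk6 water arrays it was 3.40, 3.83 and 5.06, and the part of this in the calls was not tested.

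Within the MAP kinase cascade, 41 members were measured, of which 19 were above 0 and 22 below, with a median log2 difference of -0.06 beside -0.35 over all probe sets. None was called. MKK9, a MAP kinase kinase of ethylene and camalexin signalling, was the 1 member higher without overlap, at 541, 612 and 635 in Col-0 and 1175, 786 and 1184 in mpk6 (0.79, SE 0.38). Besides MPK6, 4 were lower without overlap. MPK20 read 678, 573 and 859 in Col-0 and 406, 475 and 431 in mpk6 (-0.67, SE 0.41). MAP3KA, a MAP kinase kinase kinase, read 1089, 629 and 614 in Col-0 and 579, 534 and 343 in mpk6 (-0.66, SE 0.43). MPK18 and MKK7, the latter absent on every array, were the others. That makes 1 of 41 higher and 5 of 41 lower, MPK6 included, beside the 3.1% and 10.8% of all probe sets.

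The kinases closest to MPK6 in function overlapped between the groups. MPK3, which shares many substrates with MPK6, read 628, 809 and 809 in Col-0 and 782, 659 and 1300.4 in mpk6, a log2 difference of 0.24 (SE 0.39). MPK4, which acts in a parallel branch, read 1200.5, 1420.2 and 674 in Col-0 and 1459, 1272 and 1547 in mpk6 (0.44, SE 0.37). Neither passed the test, and in both the groups' ranges crossed. The kinases upstream gave 203, 139.5 and 98.0 in Col-0 against 235, 179 and 305 in mpk6 for MKK4. MKK5 gave 169, 281 and 635 against 464, 428 and 360.2.

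Of 13 genes reported as substrates of MPK6, 9 were above 0 and 4 below, with a median of 0.34 and 0 calls. ERF104 read 61.2, 221 and 284 in Col-0, where it was called absent, and 315, 185 and 279 in mpk6, where it was called present (0.69, SE 0.72). MYBR1, also known as MYB44, read 1727, 1509.7 and 347 in Col-0 and 1784, 1991 and 2099 in mpk6. It was the 1 substrate of 13 higher without overlap, beside 3.1% of all probe sets. The log2 difference was 1.01 (SE 0.49), but the highest Col-0 array (1727) came close to the lowest mpk6 array (1784). ACS6, an ACC synthase that MPK6 stabilises, read 31.1, 376 and 229 in Col-0 and 309.9, 210.3 and 393 in mpk6 (1.09, SE 0.83), with overlap. The bZIP factor VIP1 read 735, 1501 and 141 in Col-0 and 1265, 1224 and 876 in mpk6 (1.04, SE 0.62).

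No ethylene gene passed the test under water. The 12 genes of ethylene biosynthesis had a median of -0.55 and the 12 of perception and signalling one of 0.05, and the groups overlapped at all of them. After quantile normalization these medians were -0.26 and 0.21. ACS8, a further ACC synthase, read 661, 701 and 1841 in Col-0 and 578, 792 and 173 in mpk6 (-1.14, SE 0.55). ETR1, an ethylene receptor, was absent on every array. In group IX of the ethylene response factors, the family of ERF104, 1 of 11 was lower without overlap (ERF13, absent throughout), beside 10.8% of all probe sets. The median was -0.22, and 0.92 after quantile normalization. PDF1.2, a defensin that ethylene and jasmonate induce together, read 32.9, 15.2 and 114 in Col-0, where it was called absent, and 185, 10.9 and 133 in mpk6.

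The immune markers FRK1, WRKY33 and PR1 were spread widely within each genotype. FRK1, a receptor kinase gene that flg22 induces, read 37.2, 534 and 879 in Col-0 and 108, 103 and 1460.4 in mpk6. WRKY33, a factor that MPK6 phosphorylates and that drives camalexin synthesis, read 434, 259 and 339.9 in Col-0 and 138, 141 and 799 in mpk6. For both genes mpk6 replicate 3 was the highest of the 6 arrays, and the other mpk6 arrays lay low. PR1, the marker of the salicylic acid response, read 341, 16.9 and 226 in Col-0, where it was called absent, and 247, 16.8 and 62 in mpk6. The 25 genes of pattern-triggered immunity had a median of -0.03. BIK1 was higher and PROPEP1 lower without overlap, beside 3.1% and 10.8% of all probe sets, and PROPEP1 was absent on every array. Medians were -0.17 for 26 WRKY genes, -0.41 for 15 salicylic acid genes and -0.78 for 7 pathogenesis-related and defensin genes, beside -0.35 over all probe sets. After quantile normalization the same lists gave 0.11, 0.31 and -0.03, beside 0.05. Their members with the smallest p, WRKY72 and HCHIB (a basic chitinase), were absent on every array. SARD1, a regulator of salicylic acid synthesis, read 239, 125 and 949 in Col-0, where it was called absent, and 108, 49.8 and 100.2 in mpk6. The WRKY list held 1 member lower without overlap, WRKY72. The salicylic acid list held 1 lower, SARD1, and 1 higher, beside 10.8% and 3.1% of all probe sets.

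Among defence metabolism genes, a few stood higher in mpk6 without passing the adjusted threshold. Of 16 genes of tryptophan, camalexin and indole glucosinolates, 11 were above 0 and 2 were higher without overlap (median 0.27), beside 3.1% of all probe sets. The share was 6.85% among probe sets present or marginal on every mpk6 array, a class that held 8 of the 16. CYP83B1, which commits tryptophan derivatives to indole glucosinolates, read 1736, 2117 and 2204 in Col-0 and 4698, 2618 and 4064 in mpk6 (0.87, SE 0.35, unadjusted p 0.0227). ASA1, the first enzyme of tryptophan synthesis, read 128, 746 and 657 in Col-0 and 954, 875 and 1025 in mpk6 (1.25, SE 0.56). Both genes were above Col-0 on every mpk6 array. CYP83A1, the counterpart in the aliphatic branch, read 1795, 1697 and 2254 in Col-0 and 3601, 2234 and 4482 in mpk6 (0.80, SE 0.36), with overlap. The 11 aliphatic glucosinolate genes had a median of 0.09.

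Of 20 jasmonate genes, 12 were above 0 (median 0.20), with 1 higher and 1 lower without overlap, beside 3.1% and 10.8% of all probe sets. AOS, allene oxide synthase of jasmonate synthesis, read 3628, 8331 and 5958 in Col-0 and 11461, 8673 and 11588 in mpk6 (0.89, SE 0.40). The highest Col-0 array came within a few percent of the lowest mpk6 array. The other was JAZ10, a repressor of jasmonate signalling. FAH1, an enzyme of sinapate synthesis, read 854, 1414 and 582 in Col-0 and 1273, 1989 and 1198 in mpk6 (0.70, SE 0.40), with overlap. Phenylpropanoid genes (17, median 0.10) had 1 member higher without overlap, HCT, beside 3.1% of all probe sets. Flavonoid genes (15, median -0.57) had 1 lower, TT8, beside 10.8%. After quantile normalization these medians were -0.08 and -0.0003. Both TT8 and MYB12, the flavonoid gene with the smallest p, were absent on every array.

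Chloroplast functions gave mixed values. All 25 nuclear photosynthesis genes were present on every array, and 8 were above 0 and 17 below (median -0.13). LHCB6 was higher and LHCA1 lower without overlap, both antenna proteins. Of all probe sets present or marginal on every array of both groups, 10.4% were higher and 3.17% lower without overlap. PETE1, a plastocyanin, read 3348, 6116 and 2932 in Col-0 and 6492, 4959 and 6406 in mpk6 (0.59, SE 0.38). Of 13 genes of chlorophyll synthesis, 3 were higher without overlap and 0 lower (median 0.07), beside 3.1% of all probe sets and 10.4% of those present or marginal on every array of both groups. GUN4, which activates magnesium chelatase, read 3426, 3608 and 3034 in Col-0 and 6381, 6759.5 and 6124 in mpk6. The arrays of each group lay close together, with a 1.92-fold difference (log2 0.94, SE 0.34, unadjusted p 0.0127) that was 0.60 after quantile normalization. GUN5, a subunit of that chelatase, differed by 0.36 (SE 0.39) and G4, a chlorophyll synthase, by 0.39 (SE 0.33).

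The chloroplast-encoded genes had a median of -0.38 over 14 genes, and psbA stood out among them by its spread. It encodes the D1 protein of photosystem II, which turns over in the light. Under water it read 531, 1018 and 18041 in Col-0 and 21226, 10919.5 and 5952 in mpk6, so Col-0 replicate 3 lay among the mpk6 arrays and the other Col-0 arrays far below (log2 difference 2.38, SE 0.87, unadjusted p 0.0145). Without Col-0 replicate 3 the log2 difference was 3.92, with an adjusted p of 0.0108 in limma, and without Col-0 replicate 1 it was 1.38, with an adjusted p of 0.731. The erf104 arrays read 22479, 16780.5 and 8113 and the 35S::ERF104 arrays 20252, 16776 and 12057, and both lines overlapped mpk6.

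Stress genes included the list with the most members at an unadjusted p under 0.05 and above 0. Of 10 heat shock genes, 7 were above 0 and 4, all of them above 0, reached an unadjusted p under 0.05 (1.52% of all probe sets did so on the higher side), with a median of 0.61 (0.47 after quantile normalization). HSP101, a disaggregating chaperone, was called absent in Col-0 at 22.8, 157 and 208 and present in mpk6 at 255, 269.9 and 895. Every mpk6 array was above every Col-0 array, but no fold is given because Col-0 was not detected. HSP70 read 1855, 1910.0 and 2933 in Col-0 and 2628, 3229 and 9502 in mpk6 (0.99, SE 0.44). HSP90.1 read 424, 871 and 2178 in Col-0 and 960.2, 2038 and 6147 in mpk6 (1.3, SE 0.60). In HSP101, HSP70 and HSP90.1, mpk6 replicate 3 was the highest array and Col-0 replicate 3 the highest of its group. HSP17.6A, a small heat shock protein, read 1250.1, 1026 and 197 in Col-0 and 1933, 2750.2 and 737 in mpk6 (1.32, SE 0.61). Under flg22 the median of the same 10 genes was 0.07. The 11 ER chaperone genes had a median of -0.01 and the 14 oxidative stress genes one of 0.28, and no member of either list separated the groups. ATERDJ3B, an ER co-chaperone, read 2144, 2107 and 3588 in Col-0 and 1228, 1757 and 3857 in mpk6 (-0.32, SE 0.42), and RHL41, the zinc finger factor ZAT12, read 162, 268 and 171 in Col-0 and 236, 259.7 and 564 in mpk6.

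Abscisic acid and cold genes (17, median 0.10) held 1 member lower without overlap, beside 10.8% of all probe sets. RAB18, a dehydrin that abscisic acid induces, read 969, 1072 and 664 in Col-0 and 491, 531 and 304 in mpk6 (-1.04, SE 0.42, unadjusted p 0.0237), 2.06-fold lower. Every mpk6 array was below every Col-0 array. In erf104 it read 362, 311 and 279.7, and in 35S::ERF104 188, 382 and 282, in both lines also below every Col-0 array.

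Gibberellin genes (11, median 0.07) had 1 member higher without overlap, beside 3.1% of all probe sets. GA3OX1, the enzyme that makes bioactive gibberellin, read 165, 712 and 463 in Col-0 and 944, 1046 and 998 in mpk6 (1.39, SE 0.49, unadjusted p 0.0118). Unlike most of the higher genes, it was low in the other lines, at 283, 77.0 and 199.9 in erf104 and 307, 89.3 and 146 in 35S::ERF104. The mpk6 arrays were above all 9 other water arrays. The difference from erf104 was 2.61 on the log2 scale, with an adjusted p of 0.0555 in limma, which missed the threshold. With flg22 it read 161, 121 and 10.7 in Col-0 and 98.5, 86.4 and 87.9 in mpk6, with no separation.

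For growth and environment, medians were -0.06 for 19 auxin genes, 0.29 for 10 cell wall loosening genes, 0.26 for 10 nitrate genes, -0.03 for 15 clock genes, 0.12 for 11 senescence genes and 0.42 for 7 touch and wounding genes. NRT1.1, the nitrate transporter and sensor, read 2544, 2638 and 1515 in Col-0 and 5947, 2786 and 2929 in mpk6 (0.75, SE 0.39). GI, a clock component, read 591, 1634 and 539 in Col-0 and 2029, 1044 and 2277 in mpk6 (1.07, SE 0.45), with overlap at Col-0 replicate 2. NYE1, of chlorophyll breakdown, read 819, 684 and 999 in Col-0 and 456, 699 and 499 in mpk6 (-0.61, SE 0.40). TCH4, a touch-induced wall enzyme, read 1828, 2137 and 511 in Col-0 and 2189, 1488 and 2433 in mpk6. EXPA5, an expansin, differed by 0.95 (SE 0.50) and IAA5, an auxin-induced repressor, by -1.09 (SE 0.60). A reference gene differed by as much as many of these: ACT2, an actin used as a loading control, read 8112, 7546 and 2652 in Col-0 and 13324, 11047 and 10378 in mpk6 (1.08, SE 0.45). The 4 reference genes had a median of 0.36.

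Across the 33 lists, 17 medians were above 0 and 16 below, and after quantile normalization 25 were above and 8 below, with 12 that changed sign. The sign of a list median is therefore tied to the scaling for 12 lists. None of the 33 lists held a called member.

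**Figure D4:**
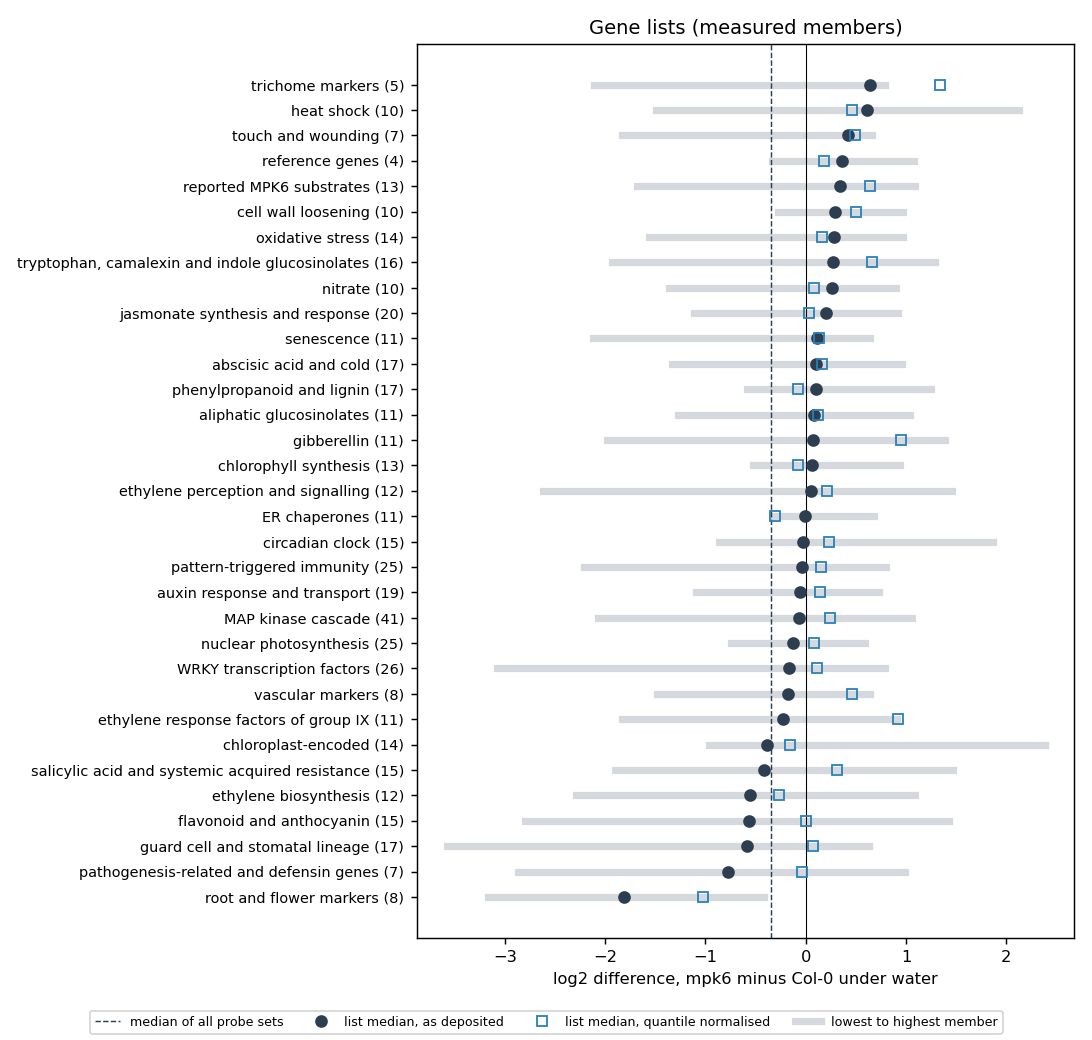
Median log2 difference, mpk6 minus Col-0 under water (x axis), of 33 gene lists (y axis), as deposited (filled) and after quantile normalization (open squares); grey bars run from the lowest to the highest member, and the dashed line marks the median of all probe sets, -0.35. Most medians lie between -0.6 and 0.7, and root and flower markers lie lowest at -1.81.

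Markers of cell types were read for a change in what the leaf samples held. The 8 root and flower markers, which a leaf should lack, were all below 0 (median -1.81, and -1.03 after quantile normalization), and 7 were absent on every array of both groups. RHD6, a root hair factor, read 194, 66.9 and 699 in Col-0 and 19.9, 17.0 and 36.7 in mpk6. The summed signal of the list was 1049, 628 and 2893 in Col-0 and 373, 444 and 287 in mpk6, so the genes that a leaf does not express gave the same direction as the 14 lower genes above. Under flg22 their median was 0.10. The 17 guard cell and stomatal lineage markers had a median of -0.58 (0.07 after quantile normalization), and their summed signal was 3587 to 6075 in Col-0 and 3044 to 3997 in mpk6. EPF2, a peptide that limits the stomatal lineage, was absent on every array. SUC2, the phloem sucrose transporter, read 2226, 2553 and 1430.3 in Col-0 and 4518, 3037 and 2238 in mpk6 (0.64, SE 0.37), and TTG1, a trichome regulator, differed by 0.79 (SE 0.45). The 8 vascular markers (median -0.18) summed to 3773 to 4331 in Col-0 and 3163 to 6166 in mpk6, and the 5 trichome markers (median 0.65) to 788 to 1278 and 979 to 1162. Of the vascular markers 5 were below 0 and 3 above. Of the trichome markers 3 were absent on every array of both groups, and their list median ran from -0.05 to 1.52 with an array left out. The part of these cell types in the other results was not tested.

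The flg22 arrays of the same genotypes share no array with the water comparison and give a separate reading of the same contrast. There limma called 0 of 22746 (0%), with 339 (1.49%) at an unadjusted p under 0.05, 148 higher (0.651%) and 191 lower (0.84%). Without Col-0 flg22 replicate 3 it called 4. Replicate 3 of Col-0 flg22, mpk6 flg22 and mpk6 water had log2 ratios of 3′ to 5′ actin of 5.15, 5.17 and 5.06, against 2.96 to 3.83 on the other 9 arrays of these genotypes, and the part of this in the results was not tested. MPK6 ranked first by p, at 1964, 2133 and 1653 in Col-0 and 657, 509.9 and 975 in mpk6 (-1.47, SE 0.31, unadjusted p 0.000222). Its groups were as clearly apart as under water. Over the 12 arrays of both treatments the MPK6 difference was -1.58 (SE 0.26, unadjusted p 4.68e-06, adjusted p 0.106), and the interaction with treatment was 0.22 (unadjusted p 0.685).

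The other named genes were mostly nearer to 0 in the flg22 arrays. Of the 15 higher genes, 13 were above 0 under flg22, in a range of -0.29 to 0.93, and 3 were higher without overlap beside 2.66% of all probe sets: AT3G19030, AT5G20700 and SAP5. AT3G19030 read 579, 858 and 860.2 in Col-0 and 1165, 1326 and 1927 in mpk6 under flg22 (0.93, SE 0.31, unadjusted p 0.00884). SAP5 differed by 0.70 under flg22 (unadjusted p 0.0277) and AT5G20700 by 0.64 (unadjusted p 0.0464). Of the 14 lower genes, 12 were below 0 and 0 were without overlap. MAPKKK15 read 354, 385 and 266 in Col-0 and 317, 198 and 184 in mpk6 under flg22, well above its level in mpk6 under water.

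Over the whole array, of the 2462 probe sets lower without overlap under water, 89 (3.61%) were lower without overlap under flg22 and 64 (2.60%) higher, beside 3.34% and 2.66% of all probe sets. Of the 704 higher under water, 42 (5.97%) were higher and 11 (1.56%) lower without overlap under flg22. The lower set was thus lower again at a rate close to that of all probe sets. The interaction of genotype and treatment gave 0 calls in limma, with 701 (3.08%) at an unadjusted p under 0.05. psbA kept its direction, at 1097, 2848 and 7372 in Col-0 and 26616, 16384 and 6053 in mpk6 under flg22 (2.28, SE 0.57, unadjusted p 0.00104), again with Col-0 replicate 3 within the range of mpk6.

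**Figure D5:**
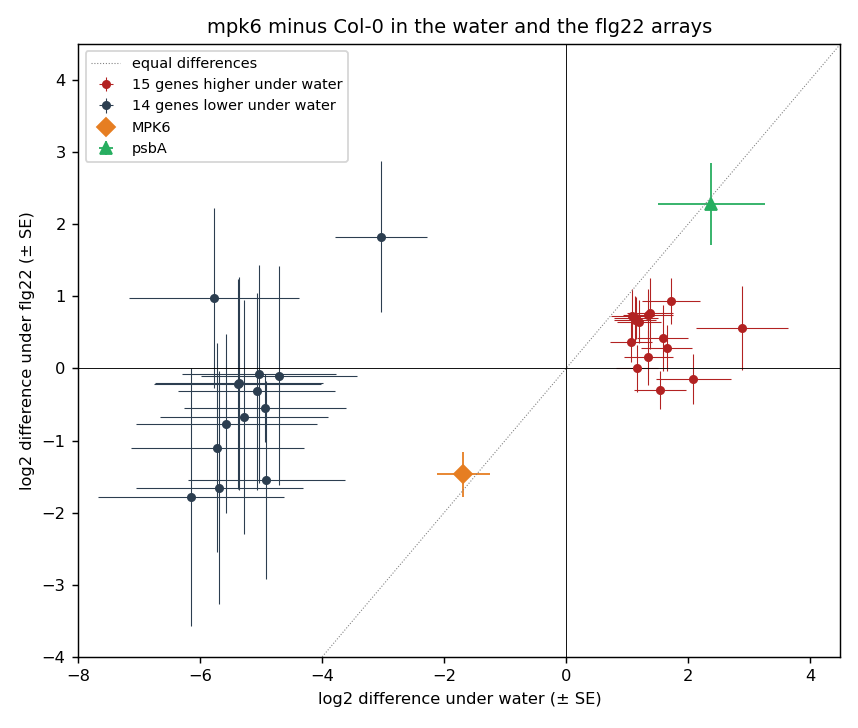
Log2 difference, mpk6 minus Col-0, under water (x axis) and under flg22 (y axis) for the 15 higher genes, the 14 lower genes, MPK6 and psbA; bars are SE of the fit with 3 arrays a group, and the dotted line marks equal differences. MPK6 (-1.69 and -1.47) and psbA (2.38 and 2.28) lie on the line, whereas most other genes lie nearer to 0 under flg22 than under water.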

How the data were processed

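Total leaf RNA of 24 samples was hybridised to ATH1 arrays, 1 array a sample. The value table deposited by the authors gives each probe set a linear intensity on each array, and every array had the same 2%-trimmed mean. No source used here names the software that made these intensities. A second table, which the submitters' processing notes link to Genespring GX 7.3.1, holds values per group. The authors' mean intensity in it equals the mean of the 3 arrays within 0.1% for 99.67% of probe sets (Col-0 water) and 93.03% (mpk6 water). Its detection calls (letters deposited by the authors) are given only as the set seen in a group.

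Intensities of 22746 probe sets, after 64 controls were left out of 22810, were taken to log2 with no pseudocount and no filter. They were fitted by lmFit and trended eBayes of limma 3.58.1 (R 4.3.3) on the 6 arrays, with Benjamini-Hochberg adjustment at 0.05. The precision is limited by the number of arrays. "Without overlap" means that all 3 arrays of one group lay above all 3 of the other. The flg22 comparison used its own 6 arrays and the interaction all 12. Loci came from the authors' table and symbols from the RefSeq gene table (TAIR10.1), which held 22091 of the loci. The 33 lists held 506 genes, of which 458 were measured by a probe set of a single gene, 9 had a locus and symbol that did not pair, and 39 had no such probe set. A gene with several was taken by the one with the highest mean log2 signal.

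Genes named are MPK6, MPK3, MPK4, ERF104, FRK1, WRKY33, ACS6, PR1 and PDF1.2, the 15 in each direction with the smallest p among those without overlap, since none passed the threshold, and the member of each list with the smallest p. Other members named, among them those without overlap, the heat shock and kinase genes, and the 5 genes called against erf104, were chosen after their values were seen. The members and lists were chosen with earlier results of these data known. Alternatives were quantile normalization, median centring, no trend, 24 or 23 arrays, a block for the replicate number, filters on signal or calls, a pseudocount of 64, array weights, the methods' test, and each array left out. Col-0 replicate 2 as the lone control and the genotype effect over 12 arrays were added after seeing the data.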

Additional observations from a re-analysis of the deposited data

Results flagged for a closer look

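AT3G18190 moved in opposite directions under the 2 treatments. Under water all mpk6 arrays (2095, 2136 and 1789) were above all Col-0 arrays (742, 1234 and 352), and under flg22 all mpk6 arrays (1538, 2084 and 1714) were below all Col-0 arrays (2097, 2140.3 and 2254), with log2 differences of 1.54 (SE 0.43) and -0.29 (SE 0.26). The interaction was -1.84 on the log2 scale (SE 0.52), with an unadjusted p of 0.00221 and an adjusted p of 1.00 in limma, so the difference between treatments did not pass the correction. The mpk6 value under water was close to those under flg22 of both genotypes, and Col-0 under water was the group that stood lower.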

How the results depend on the processing

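The count of 0 calls under water became 1 with all 24 arrays and 1 with 23 (MAPKKK15 in both, absent on every array of either group), 15 with the replicate block, 0 to 1 when an array was left out (1, psbA, without Col-0 water replicate 3), and 884 by the methods' test before adjustment. The number at an unadjusted p under 0.05 ran from 919 to 4135 over the left-out arrays. The flg22 count was 0 to 4 with an array left out (4 without Col-0 flg22 replicate 3), and the interaction count 0 to 0. Same-numbered arrays correlated in their deviations from the group means by 0.0547, 0.0669 and -0.123 under water and 0.203, 0.0887 and 0.451 under flg22, so the numbers were not taken to pair the arrays; under flg22 the block gave 0 calls, with 1153 at an unadjusted p under 0.05 against 339 without it. The block called psbA, SERAT2;2, AT1G01300, AT3G06680, AT3G18190 and AT3G19030 among the genes named. MPK6 ran from -2.18 (Col-0 replicate 2 alone) to -1.12 (median centring). Signs changed in 10 of the other 69 genes. MPK3 was -0.00107 over 12 arrays and -0.050 to 0.44 with an array left out. FRK1 was 0.081 by quantiles, 0.53 centred, 0.040 over 12 arrays and -1.44 to 0.85 with an array left out. WRKY33 and ATERDJ3B were 0.13 and 0.24 centred, and ATERDJ3B -0.79 to 0.041 with an array left out. Against Col-0 replicate 2 alone, ACS6 was -0.35, PR1 1.91, ETR1 -0.16, PETE1 -0.050 and TCH4 -0.10. With an array left out, PR1 was -2.12 to 0.18 and PDF1.2 -0.014 to 2.03. The causes were not tested. Detection limits all directions among probe sets absent in both groups.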
